A study of Homo sapiens with 4 samples.

Results

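The genes examined were 10 neighbours of ERBB2 (the HER2 gene) on the long arm of chromosome 17 at 17q12: MED1, CDK12, PPP1R1B, STARD3, TCAP, PGAP3, MIEN1, GRB7, IKZF3 and PSMD3, in order along the chromosome. They were chosen by name and position, with ERBB2 itself left out, and all 10 were among the 56271 rows of the gene count table. The RNA came from SKBR3, a HER2-positive line established from breast cancer, in 2 libraries of eGFP control cells and 2 of cells that overexpressed VIRMA. VIRMA is the scaffold of the m6A writer, which places N6-methyladenosine on transcripts. Both groups carried a lentiviral vector with a ubiquitin C promoter: the control vector expressed eGFP alone, and the other expressed full-length, HA-tagged VIRMA joined to eGFP through a self-cleaving peptide. Cells were sorted for eGFP, so each group was a transduced population of the same line. The labels of all 4 libraries mention culture in a chamber with low oxygen, whereas the study treats these cells as ordinary cultures, so their oxygen level is not certain; it is assumed not to differ between the groups.

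ERBB2 is amplified in HER2-positive breast cancer, and its neighbours are copied with it to an extent that differs from tumour to tumour. Genes that share an amplified segment tend to have high transcript levels, and a gain or loss of copies of that segment would be carried by each gene on it. The comparison therefore asks whether the neighbours moved together between the groups. DNA copy number was not measured in these libraries. The members have unrelated roles: MED1, CDK12 and IKZF3 act in transcription, GRB7 and PPP1R1B in signalling, STARD3, PGAP3 and MIEN1 at membranes, TCAP in the sarcomere and PSMD3 in the proteasome.

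The libraries held 81446932 to 86375474 counts. VIRMA, listed under its older symbol KIAA1429, rose from 710 and 682 counts in the controls to 3437 and 3460 with raised VIRMA, a log2 fold change of 2.29 (SE 0.069, edgeR quasi-likelihood test, adjusted p = 9.74e-26); it passed the filter described below through the VIRMA-overexpressing libraries alone. The mitochondrial share of counts was 11.4% to 11.6% in control libraries and 12.8% in each library with raised VIRMA. Of 6 luminal epithelial markers, 5 were expressed above the filter (KRT8, KRT18, KRT19, EPCAM and GATA3) and CDH1 held only 5 to 33 counts per library. In bulk RNA, fewer cells of a type and less RNA per cell cannot be told apart.

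The neighbours did not move together. Of the 9 members that passed the filter on low values, 4 were higher in VIRMA-overexpressing cells (MED1, CDK12, PGAP3 and GRB7), 3 were lower (PPP1R1B, TCAP and PSMD3), and STARD3 and MIEN1 did not pass the test at an adjusted p below 0.05 over the 12205 genes tested. Log2 fold changes ran from -0.68 for PSMD3 to 0.43 for GRB7, a spread of 1.11, and none of the 9 passed a 2-fold change in either direction. ERBB2, the gene they surround, had a log2 fold change of -0.0011 (SE 0.020, adjusted p = 0.963), with 7167 and 7001 CPM (counts scaled to library size) in the controls against 7078 and 7079 CPM with raised VIRMA. Over all tested genes the same test called 35.1% higher and 35.9% lower, 71% in either direction, and the 2-fold change was passed by 4.52% upwards and 2.93% downwards, 7.46% in all, so the members' counts lie near this background. In CPM, 5 of the 9 lay higher in both VIRMA-overexpressing libraries than in either control and 3 lower, against 42.7% and 41.6% of all tested genes. All 9 had an RPKM (reads per kilobase of exon, scaled to library size) above 1 in every library, so none of them entered through 1 group alone. With library totals or upper-quartile factors in place of TMM, the split was 5 higher (MIEN1 added) and 2 lower (TCAP lost), and ERBB2 itself was called higher, at 0.085 (adjusted p = 0.000269) and 0.070 (adjusted p = 0.00144). With filterByExpr as the filter ERBB2 was called lower, at -0.045 (adjusted p = 0.0303), so its direction and call depend on the scaling and the filter. These p-values measure only the spread between these libraries.

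**Figure D1:**
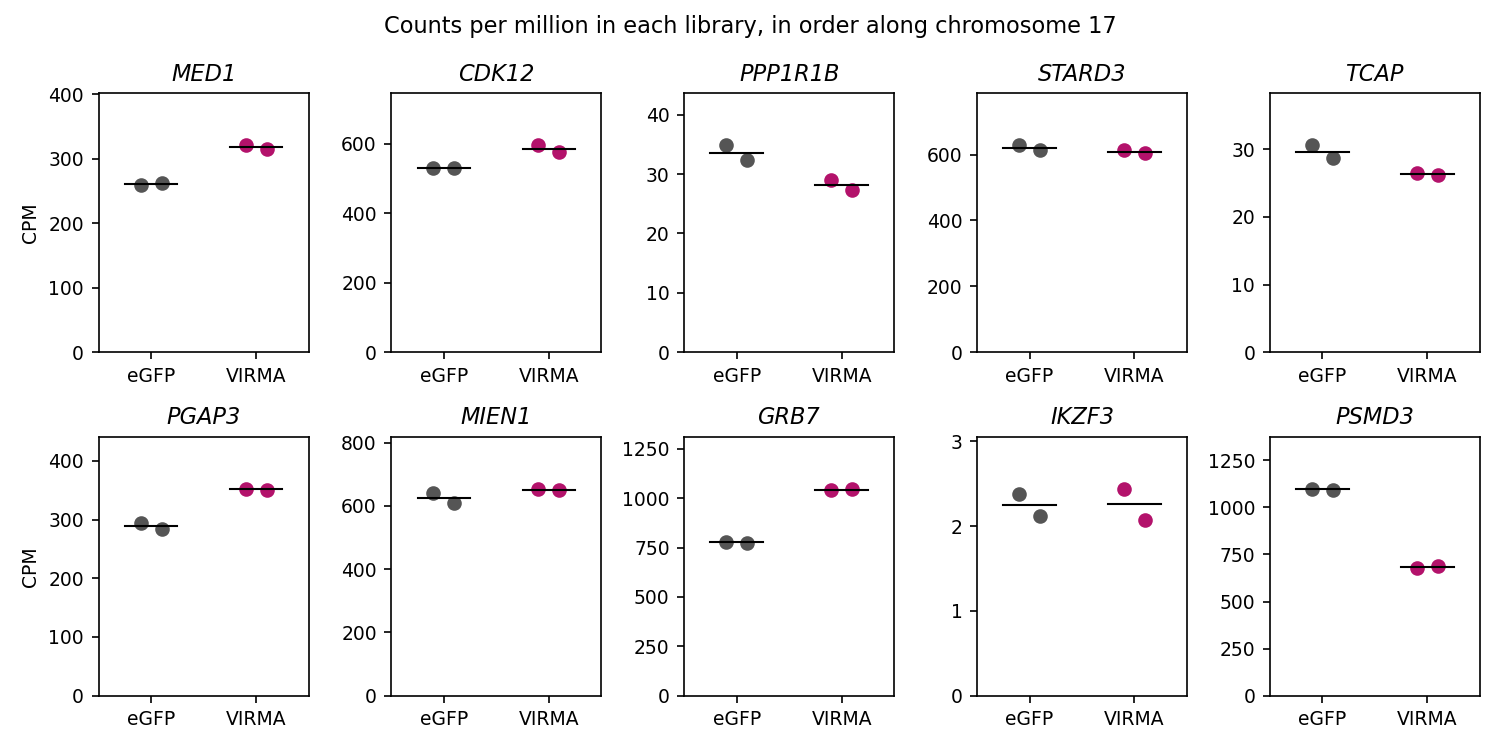
CPM of each of the 10 genes in the 2 eGFP control libraries (grey) and the 2 VIRMA-overexpressing libraries (magenta), with the group mean as a bar; each vertical axis starts at 0 and has its own scale. GRB7, MED1, PGAP3 and CDK12 lie higher in VIRMA-overexpressing cells, PSMD3, PPP1R1B and TCAP lower, and the points of STARD3 and IKZF3 overlap.

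GRB7 had the largest rise among the members. It encodes an adaptor whose SH2 domain binds phosphorylated receptors, HER2 among them, and lies at chr17:39737927-39747291 (GRCh38, plus strand). Its level was 780.0 and 771.1 CPM in the controls and 1040 and 1048 CPM in the VIRMA-overexpressing cells. The groups were far apart beside the spread within each, at 775.6 ± 6.30 and 1044 ± 5.52 CPM (SD, n = 2 each). The log2 fold change was 0.43 (SE 0.026, 95% interval 0.38 to 0.48, edgeR adjusted p = 1.11e-16). Within a library, GRB7 counts were on average 10.9% of ERBB2 counts in control cells and 14.7% with raised VIRMA, with no overlap between the groups. This ratio does not depend on how libraries were scaled to each other.

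PPP1R1B, the other signalling gene, changed the opposite way. It encodes DARPP-32, an inhibitor of protein phosphatase 1 best known from dopamine-responsive neurons, with a shortened form known from cancers, and lies at chr17:39626740-39636626 (plus strand). Its level was 34.9 and 32.4 CPM in the controls and 29.1 and 27.3 CPM in the VIRMA-overexpressing cells. Both control libraries were higher than both VIRMA-overexpressing libraries. The log2 fold change was -0.26 (SE 0.060, 95% interval -0.38 to -0.13, edgeR adjusted p = 0.000277).

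MED1 and CDK12, the members nearest the centromere, both rose. MED1 is the Mediator subunit through which nuclear receptors such as the oestrogen receptor contact the transcription machinery, and lies at chr17:39404285-39451286 (minus strand). It was at 258.5 and 261.9 CPM in the controls and at 320.8 and 314.3 CPM in the VIRMA-overexpressing cells. The groups, at 260.2 ± 2.36 and 317.6 ± 4.57 CPM (SD, n = 2 each), did not overlap, and the log2 fold change was 0.29 (SE 0.030, 95% interval 0.23 to 0.35, edgeR adjusted p = 1.80e-10). CDK12, at chr17:39461511-39564907 (plus strand), encodes a cyclin-dependent kinase that phosphorylates the tail of RNA polymerase II with cyclin K. It was at 529.5 and 531.5 CPM in the controls and at 595.9 and 576.2 CPM in the VIRMA-overexpressing cells. Its rise was smaller than that of MED1 and its VIRMA-overexpressing libraries lay farther apart than its controls, with a log2 fold change of 0.14 (SE 0.028, 95% interval 0.09 to 0.20, edgeR adjusted p = 3.10e-05).

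IKZF3 was the one member under the filter. It encodes Aiolos, a zinc finger factor of lymphocytes, and spans chr17:39757715-39864188 (minus strand), between GRB7 and PSMD3. Its counts were 196 and 176 in the controls against 207 and 172 with raised VIRMA, or 2.38, 2.12, 2.44 and 2.08 CPM. The groups overlapped, and the level per length was 0.225 and 0.226 RPKM in the group means. With no filter on low values its log2 fold change was close to 0, -0.029 with an SE of 0.21 (edgeR adjusted p = 0.947). The summed level of 8 B and T cell markers, none of which passed the filter, was 1.38 to 2.38 CPM per library, and MS4A1 was at 0 counts in all 4.

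The 3 membrane genes split. STARD3 encodes a late endosomal protein that moves cholesterol at membrane contact sites and lies at chr17:39637065-39663484 (plus strand). It was at 628.2 and 612.2 CPM in the controls and at 612.8 and 605.3 CPM in the VIRMA-overexpressing cells, so the groups overlapped. Its log2 fold change was -0.026 (SE 0.028, 95% interval -0.083 to 0.030, edgeR adjusted p = 0.409), and its sign turned with library totals (0.060) and upper-quartile factors (0.045).

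PGAP3 encodes a Golgi enzyme that remodels the lipid of GPI anchors and lies at chr17:39671122-39696797 (minus strand). It was at 294.0 and 284.2 CPM in the controls and at 352.4 and 350.6 CPM in the VIRMA-overexpressing cells, with no overlap between the groups. The log2 fold change was 0.28 (SE 0.030, 95% interval 0.22 to 0.34, edgeR adjusted p = 2.65e-10). In size this was close to that of MED1, although PGAP3 lies beside ERBB2 and MED1 at the far end of the span.

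MIEN1 encodes a small prenylated protein of the inner membrane face with a fold like that of selenoprotein W, and lies at chr17:39728496-39730787 (minus strand). Its level was 640.1 and 609.2 CPM in the controls and 654.0 and 648.6 CPM in the VIRMA-overexpressing cells. The groups did not overlap, but the control libraries differed by more than the group means did. The log2 fold change was 0.060 (SE 0.029, 95% interval 0.0021 to 0.12), and after adjustment over all tested genes the edgeR p was 0.0595. MIEN1 passed the test without eGFP control replicate 1 (0.092, adjusted p = 0.0128), with limma-voom (0.061, adjusted p = 0.0302) and with the replicate number as a block (0.061, adjusted p = 0.00767).

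TCAP and PSMD3 were both lower, by different amounts. TCAP encodes telethonin, which caps titin at the Z-disc of striated muscle, and lies at chr17:39664187-39666555 (plus strand). It was at 30.6 and 28.7 CPM in the controls and at 26.5 and 26.2 CPM in the VIRMA-overexpressing cells. The groups did not overlap, and the log2 fold change was -0.17 (SE 0.061, 95% interval -0.29 to -0.05, edgeR adjusted p = 0.0132); without eGFP control replicate 1 it was -0.13 and no longer passed (adjusted p = 0.132). None of 8 other sarcomere genes passed the filter. Their summed level was 4.89 and 5.91 CPM in the controls and 7.78 and 8.53 CPM in the VIRMA-overexpressing cells. Most of this sum was TTN, the titin gene, with group means of 3.88 and 6.57 CPM. MYOZ1 went the other way, from 27 and 24 counts in the controls to 4 and 2 with raised VIRMA. MYL1 was at 0 counts in all libraries, so the sum does not describe sarcomere genes as a group.

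PSMD3 changed more than any other tested member. It encodes a subunit of the lid of the 19S particle, which recognises and unfolds ubiquitinated proteins for the proteasome, and lies at chr17:39980797-39997960 (plus strand), the farthest from ERBB2 on the telomeric side. It was at 1099 and 1093 CPM in the controls and at 676.6 and 687.4 CPM in the VIRMA-overexpressing cells. The groups, at 1096 ± 4.24 and 682.0 ± 7.60 CPM (SD, n = 2 each), were separated by far more than their spread. The log2 fold change was -0.68 (SE 0.026, 95% interval -0.74 to -0.63, edgeR adjusted p = 1.85e-22), or 0.622 times the control level. Relative to ERBB2 in the same library, PSMD3 counts were 15.3% and 15.6% in control cells and 9.56% and 9.71% with raised VIRMA.

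Ratios to ERBB2 within a library gave the other members the same directions. This had to follow, since ERBB2 was at -0.0011 on the main scale, so the ratios are no separate check of those directions. MED1 went from 3.61% and 3.74% of ERBB2 counts to 4.53% and 4.44%, CDK12 from 7.39% and 7.59% to 8.42% and 8.14%, and PGAP3 from 4.10% and 4.06% to 4.98% and 4.95%. PPP1R1B went from 0.487% and 0.463% to 0.411% and 0.385%, and TCAP from 0.427% and 0.410% to 0.375% and 0.370%. STARD3 was at 8.76% and 8.74% in the controls against 8.66% and 8.55% with raised VIRMA. MIEN1 was at 8.93% and 8.70% against 9.24% and 9.16%, and neither gene's ratios overlapped between the groups. The summed level of the 10 members was 4297 and 4226 CPM in the controls and 4311 and 4286 CPM in the VIRMA-overexpressing cells, so the sums overlapped between groups while single members moved apart.

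**Figure D2:**
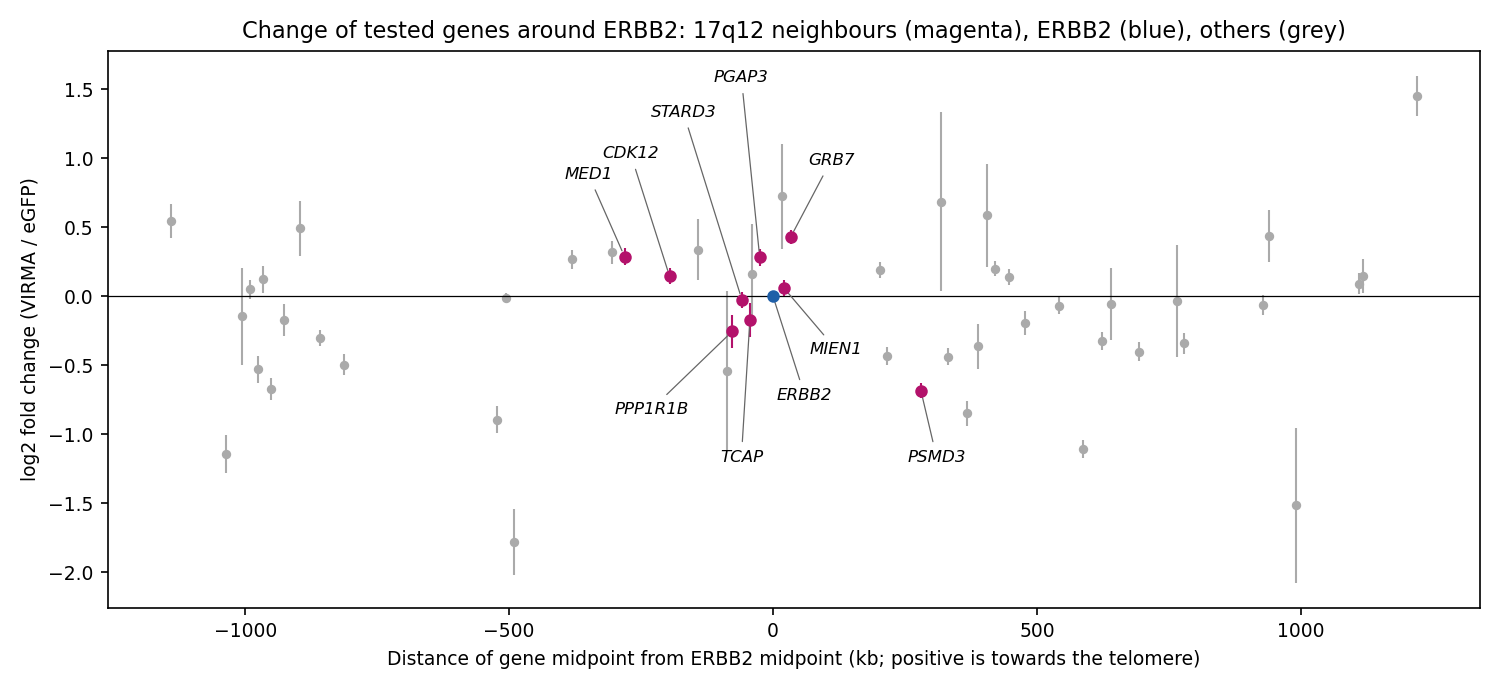
Log2 fold change (VIRMA-overexpressing over eGFP control, vertical axis) of tested genes around ERBB2 against the distance of each gene's midpoint from that of ERBB2 in kilobases; bars are 95% intervals, magenta marks the 9 tested members, blue ERBB2 and grey the other tested genes. The members lie on both sides of 0 within short distances of each other, from -0.68 for PSMD3 to 0.43 for GRB7.

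Neighbours on the chromosome differed from each other as well as from ERBB2. Of the 9 pairs that follow each other along the chromosome (ERBB2 included, IKZF3 not), 8 had log2 fold changes whose difference had a 95% interval that left out 0, with the errors of the genes taken as independent. The same held for 64% of the 827 pairs of consecutive tested genes over all of chromosome 17, so such differences were common and nothing particular to these neighbours is read from the count. The ratio of counts within a library did not overlap between the groups in any of the 9 pairs, against 77.3% of the pairs over chromosome 17; for single genes, CPM did not overlap in 84.3% of all tested. PPP1R1B and STARD3, on the same strand and 438 bases apart, differed by 0.23 (95% interval 0.10 to 0.36). STARD3 and TCAP, 702 bases apart, differed by -0.14 (-0.28 to -0.0078). TCAP and PGAP3, which lie tail to tail with 4566 bases between them, differed by 0.45 (0.31 to 0.59). The widest step was from GRB7 to PSMD3, -1.11 (-1.19 to -1.04) over 233505 bases. The pair whose interval held 0 was ERBB2 and MIEN1, at 0.061 (-0.0095 to 0.13).

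PGAP3 and ERBB2 have RefSeq transcripts that start head to head, and the 2 genes differed in their change. In RefSeq the start sites of their chosen transcripts lie 37 bases apart, at 39688057 for PGAP3 on the minus strand and 39688094 for ERBB2 on the plus strand, and windows from 250 bases before to 50 bases after each start share 136 bases at chr17:39688008-39688143. The log2 fold change was 0.28 for PGAP3 and -0.0011 for ERBB2, and the difference, -0.28 for ERBB2 minus PGAP3, had a 95% interval of -0.36 to -0.21. The shared stretch is shown because the chosen transcripts of both genes start in it. Other start sites were not examined. Counts are per gene, so which start the reads of ERBB2 or PGAP3 came from was not tested. It is written 5′ to 3′ on the ERBB2 strand from the RefSeq promoter table of GRCh38.p14, with no capitals since no motif was marked in it.
PGAP3 and ERBB2 shared stretch: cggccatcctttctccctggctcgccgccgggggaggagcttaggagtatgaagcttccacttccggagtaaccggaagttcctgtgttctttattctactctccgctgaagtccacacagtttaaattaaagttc
The exons of both genes, as the count table lists them, share 194 bases on opposite strands (5.29% of PGAP3 exons), and those of MIEN1 and ERBB2 share 571 bases (24.9% of MIEN1 exons). Whether counting used strand is not stated, so reads in these stretches may have been given to either gene or to none, and the part of this in the values of PGAP3 and MIEN1 was not tested.

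RefSeq windows were at hand for 6 of the 10 members (MED1, CDK12, STARD3, PGAP3, MIEN1 and PSMD3) and for ERBB2. Both strands were searched for TATAAA (the TATA box), the CCAAT box, GGGCGG (the GC box), TGACNNNGC (an antioxidant-type element), TGATGNAA (an ATF4 composite element) and GCCNNNGGC (an AP-2 element), in that order the letters that 11.5%, 34.6%, 45.0%, 13.4%, 3.62% and 23.2% of 35116 RefSeq promoter windows hold. PSMD3, the member that fell most, held CCAAT once, TGACNNNGC at 2 places and GCCNNNGGC once, the last overlapping the first TGACNNNGC. Among the 6 members with a window, MIEN1 was the only other with TGACNNNGC, there overlapping a GC box. Both windows are shown 5′ to 3′ on the strand of the gene, GRCh38.p14, with matches on either strand in capitals: PSMD3 at chr17:39980557-39980856 (plus strand) and MIEN1 at chr17:39730483-39730782 (minus strand).
PSMD3: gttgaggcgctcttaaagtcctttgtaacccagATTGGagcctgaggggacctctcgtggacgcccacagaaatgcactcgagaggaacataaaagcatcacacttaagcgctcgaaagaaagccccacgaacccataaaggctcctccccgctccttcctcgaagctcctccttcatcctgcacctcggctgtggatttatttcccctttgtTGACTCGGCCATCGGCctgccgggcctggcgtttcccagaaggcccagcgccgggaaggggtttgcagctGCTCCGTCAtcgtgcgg
MIEN1: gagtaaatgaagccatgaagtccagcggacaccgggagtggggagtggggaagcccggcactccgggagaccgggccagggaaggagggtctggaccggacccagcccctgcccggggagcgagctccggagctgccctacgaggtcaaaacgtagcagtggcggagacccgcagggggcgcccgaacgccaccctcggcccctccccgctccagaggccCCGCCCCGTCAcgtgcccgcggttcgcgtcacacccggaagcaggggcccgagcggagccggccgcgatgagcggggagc
MED1 held CCAAT once, STARD3 a GC box at 2 places and GCCNNNGGC once, and PGAP3 a GC box once, while the CDK12 window held none of the 6. The members that rose and had a window (MED1, CDK12 and PGAP3) shared no motif of the 6. GRB7, which also rose, and PPP1R1B and TCAP, which were lower, had no window to search. A match is only a run of letters in the window, and any link between a motif and a change was not tested.

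Per length, most of the tested members were among the more abundant transcripts of these cells. The median RPKM of the 9 tested members in the controls was 78.8, and 6 of the 9 were in the top 10% of tested genes. The median was 4.97 for tested genes on the rest of chromosome 17 and 4.87 over all tested genes. Rows near the members also stood above these: 31.5 for the 7 other tested rows in the span, ERBB2 among them. Within 1 Mb of the span the median was 12.6 on the centromeric side and 11.1 on the telomeric side. In the controls the order was MIEN1 (272.5 RPKM), PSMD3 (220.8), GRB7 (215.6), STARD3 (120.2), PGAP3 (78.8), CDK12 (41.5), MED1 (35.5), TCAP (14.0), PPP1R1B (7.38) and IKZF3 (0.225), every one under ERBB2 at 686.4 RPKM. PSMD3 and GRB7 were close, at 221.4 and 220.2 RPKM against 216.9 and 214.4 in the single libraries. In the VIRMA-overexpressing cells GRB7 (290.2 RPKM) stood above MIEN1 (284.1), and PSMD3 had dropped to 137.4, while the other members kept their places. No neighbours in either order overlapped in their 2 libraries, although an RPKM compares genes only as well as the listed exon length stands for the transcript that is expressed.

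**Figure D3:**
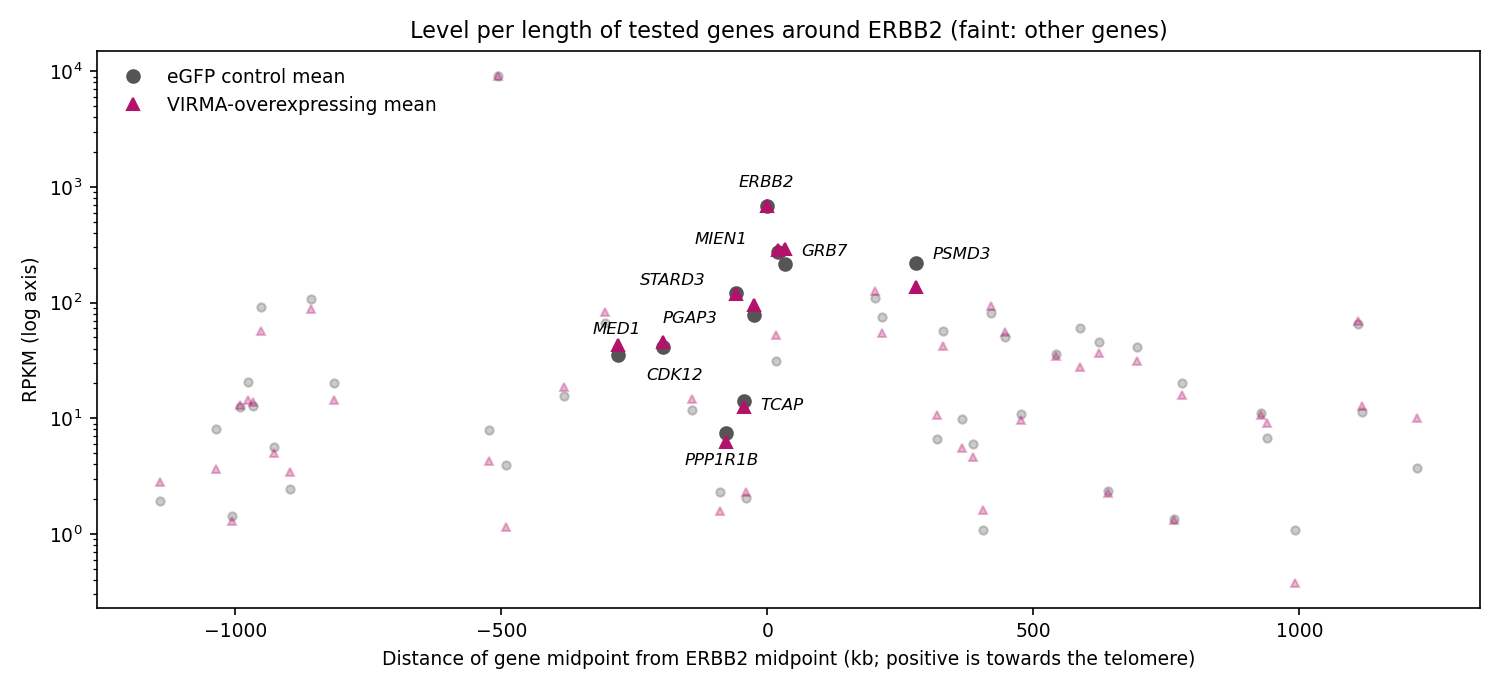
Mean RPKM (log axis) in eGFP control cells (grey circles) and VIRMA-overexpressing cells (magenta triangles) against distance from ERBB2 in kilobases; the tested members and ERBB2 are solid and other tested genes faint. Among the solid symbols ERBB2, MIEN1, GRB7 and PSMD3 stand highest and TCAP and PPP1R1B lowest, and PSMD3 and GRB7 exchange order between the groups.

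Other genes in the same stretch also split. Between MED1 and PSMD3, over 593.7 kb, 7 tested rows were not members: 3 were higher and 1 was lower. GSDMB, a gasdermin, rose by 0.19 (SE 0.028, edgeR adjusted p = 1.67e-07) and its neighbour ORMDL3, a regulator of sphingolipid synthesis, was lower at -0.43 (SE 0.031, edgeR adjusted p = 1.07e-14). The lncRNA row RP11-390P24.1 rose by 0.34 (adjusted p = 0.00664), AC087491.2 was at -0.54 (adjusted p = 0.0896) and PNMT, which makes adrenaline, at 0.16 (adjusted p = 0.433), the last pair not called. MIR4728, a 67-base row inside ERBB2 on the same strand, was called higher at 0.72 (adjusted p = 0.000914) on 163 to 320 counts per library, and reads of its host cannot be told apart from it. By midpoint, the nearest tested rows outside the span were CTB-131K11.1, which reaches into MED1 and rose by 0.32 (adjusted p = 1.88e-08), and SNORD124, a 104-base row inside MED24 at 0.69 (adjusted p = 0.0536, not called). MED24 itself, whose near end lies closer to PSMD3 than SNORD124 does, was lower at -0.44 (adjusted p = 2.47e-15).

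Genes in the surroundings also went both ways, although within 1 Mb both flanks held more lower than higher genes. Of tested genes within 1 Mb of the span, 5 of 16 were higher and 8 lower on the centromeric side (median log2 fold change -0.16, or -0.016 within 2 Mb), and 7 of 21 were higher and 10 lower on the telomeric side (median -0.060). The rest of chromosome 17, more than 5 Mb away, had 241 of 677 genes higher and 221 lower (median 0.068). Over all tested genes 35.1% were higher and 35.9% lower. Within 2 Mb the centromeric side had 9 of 24 higher and 8 lower, so its excess of lower genes depended on the distance chosen. Whether the flanks differed from the shares over all tested genes was not tested. The tested members had a median of 0.060 and an interquartile range of 0.45, against a median of 0.012 and a range of 0.67 over all tested genes. The chromosome 17 genes whose profile over the 4 libraries was most like the mean profile of the tested members were ERBB2, FLII and NPLOC4, with mean absolute differences of 0.0076, 0.0081 and 0.0088 on the log2 scale. FLII and NPLOC4 lie 21.5 Mb and 41.9 Mb from ERBB2, and none of these 3 genes passed the test. Rises and falls of the members cancel in their mean profile, which is nearly flat. Likeness to it therefore picks genes that changed little, and does not show that any called member follows ERBB2.

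Several members belong to complexes or families whose other genes lie mostly on other chromosomes, MED24 near PSMD3 being an exception. PSMD3 fell beside nearly the whole 19S particle: of 18 other 19S genes, 16 were lower and 0 higher, and the median of their log2 fold changes was -0.39. Over all tested genes 35.1% were higher and 35.9% lower, and the counts of the lists below are to be read beside these shares. They ranged from PSMD2, at -0.86 (SE 0.031, edgeR adjusted p = 1.64e-23), to PSMC6, at -0.039 (SE 0.051, adjusted p = 0.505). PSMD3 lay inside this range at -0.68. MED1 rose in a complex whose other genes went both ways. Of 31 other Mediator genes, 8 were higher and 11 lower (25.8% and 35.5%), so nothing particular to the complex is read from the split. Their median was -0.066, from MED21 at -0.44 (adjusted p = 0.000233) to MED23 at 0.81 (adjusted p = 6.55e-14). Of the 8 higher, MED13 and MED13L passed the filter through the VIRMA-overexpressing libraries alone and so had to be higher.

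CDK13, the close relative of CDK12 that also pairs with cyclin K, rose by 0.35 (SE 0.037, edgeR adjusted p = 1.22e-10), while CCNK, the cyclin K gene, was under the filter with counts of 292 and 284 in the controls against 267 and 202 with raised VIRMA. Of 8 repair genes known to depend on CDK12, 5 were tested: 2 were higher and 3 lower, from FANCI at -0.98 (adjusted p = 1.45e-18) to ATM at 1.21 (adjusted p = 4.87e-20). ATM was above 1 RPKM in the VIRMA-overexpressing libraries alone, so the filter let it in only because it was higher there. GRB10, of the GRB7 family, rose by 0.42 (SE 0.082, adjusted p = 2.67e-05), close in size to GRB7. The adaptor GRB2 was lower at -0.51 (adjusted p = 1.13e-14), so of the 3 tested genes of that list 2 were higher and 1 lower, and GRB14 held only 2 to 25 counts.

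Of the phosphatase genes that PPP1R1B acts on, PPP1CA was lower at -0.68 (adjusted p = 4.11e-20) and PPP1CB higher at 0.17 (adjusted p = 2.43e-05), with 2 lower and 1 higher among the 3 tested. Sterol transfer genes related to STARD3 had 3 higher and 2 lower of 6, from NPC2 at -0.59 (adjusted p = 3.32e-14) to MOSPD2, a partner at endosomal contact sites, at 1.10 (adjusted p = 1.17e-10). The mean control level of MOSPD2 was 0.941 RPKM, near the limit of 1 that the filter applies to single libraries. Of the other GPI remodelling genes, 2 of 3 tested were lower and 0 higher, while PGAP3 rose; they ran from TMEM8A at -0.42 (adjusted p = 7.12e-11) to MPPE1 at -0.059 (adjusted p = 0.595). The selenoprotein genes related to MIEN1 had 2 of 3 tested lower and 0 higher, from SEPW1 at -0.27 (adjusted p = 2.62e-09) to SELT at -0.11 (adjusted p = 0.0514). Of the Ikaros family only IKZF5 was tested, at 0.39 (adjusted p = 0.00551).

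**Figure D4:**
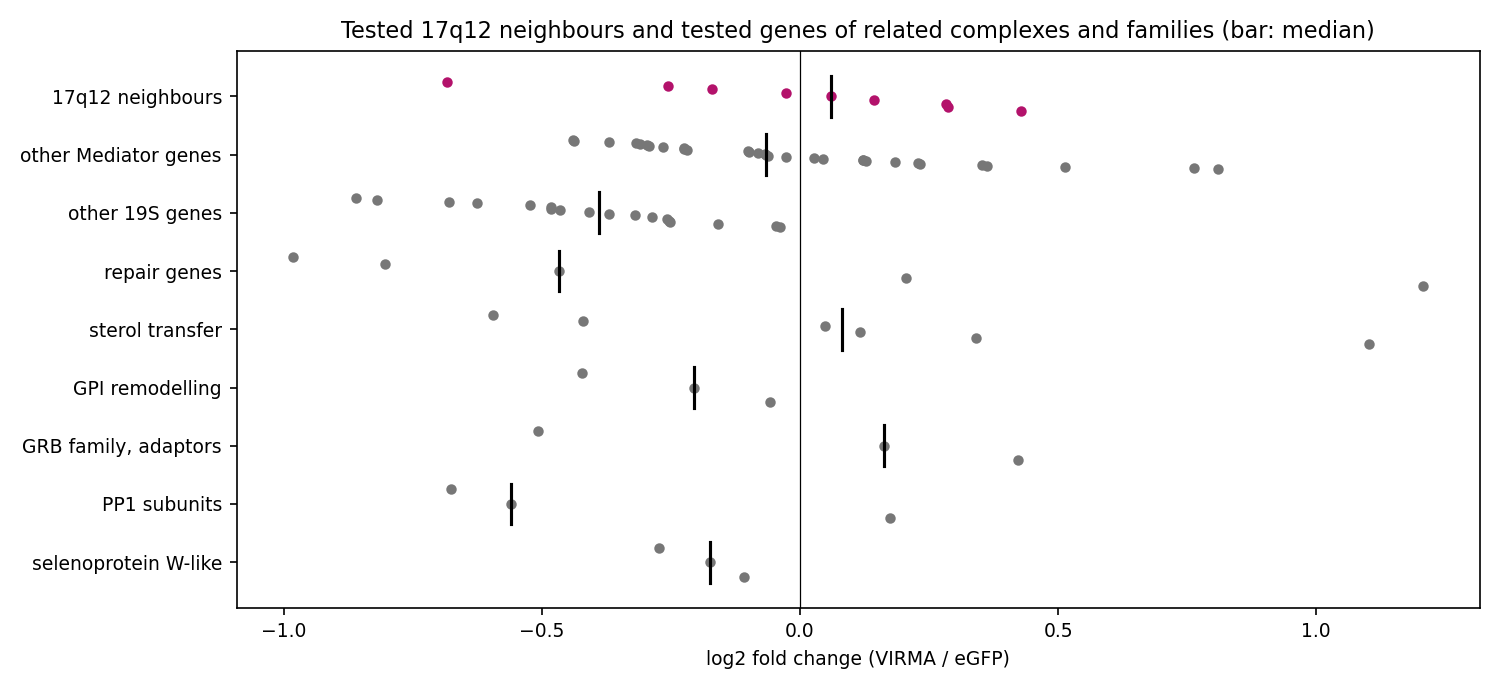
Log2 fold change (horizontal axis, VIRMA-overexpressing over eGFP control) of the 9 tested members (magenta) and of tested genes from 8 related groups (grey), one point per gene with the group median as a bar. The 19S genes lie at or below -0.039, while the members, Mediator genes and the other groups with more than 3 tested genes fall on both sides of 0.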

How the data were processed

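Poly-A RNA libraries (TruSeq stranded kit) of 2 eGFP control and 2 VIRMA-overexpressing SKBR3 cultures were compared. Per the study's methods and processing notes, the authors trimmed reads with Trimmomatic 0.39, aligned them with STAR 2.5.2a and counted them with featureCounts. The deposited table holds raw gene-level counts with no normalization, beside exon coordinates and exon length. Strand use and the treatment of reads with several alignments are not given in the sources used here. Control columns name the control; the VIRMA columns hold only a number and were taken as the group that remained, which the VIRMA counts check. Coordinates are GRCh38: all of the 1660 chromosome 17 rows with a GENCODE symbol overlapped that gene's position.

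RPKM was computed here from counts, library totals and exon lengths, and genes above 1 in at least 2 libraries were tested in edgeR 4.0.16 (quasi-likelihood test, R 4.3.3) with TMM factors (0.968 to 1.03) and no term but group, adjusting p by Benjamini-Hochberg over 12205 genes. A call needs an adjusted p below 0.05; the 2-fold change is a log2 fold change past 1 or -1. Printed CPM and RPKM levels use the summed counts of tested genes times the TMM factor. The SE is the absolute log2 fold change over the square root of F, and intervals are 95%, from the t distribution of the fit. An exact permutation test of 2 against 2 libraries cannot go below p = 0.333, so the tests rest on spread shared over genes. The script was tested on simulated data. Replicates differed by more than sampling noise (chi-square per degree of freedom 6.01 and 4.98). Same-numbered libraries did not deviate together (correlation 0.0753), so numbers were not taken as pairs.

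The members, the 15 gene lists, the motifs and the tests were chosen with earlier results of these data known. Named genes were the members, ERBB2, VIRMA, CCNK, CDK13 and the extremes of each list. Also named were other tested genes in the span, the nearest outside, genes sharing exons with a member, and the 3 most alike in profile. GRB14, the luminal markers, MS4A1, MYL1, TTN, MYOZ1, SNORD124, MED13, MED13L and those under other observations were added after their values were seen. Likeness was the mean absolute difference of log2(CPM + 0.5), centred over the libraries. Alternatives were DESeq2 1.42.0, limma-voom (limma 3.58.1), 3 scalings, 3 filters, centring on the rest of chromosome 17, a replicate block, leaving out each library and a 2 Mb flank. The shares over consecutive chromosome 17 pairs were added after the data were seen.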

Additional observations from a re-analysis of the deposited data

How the results depend on the processing

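Over all alternatives 191 values kept direction and call or stayed within the replicate spread. Of the rest, 3 lost their call, 7 gained one, 5 turned sign in a refit and 19 moved in value. In log2, upper-quartile factors and library totals, which moved the median of all genes by 0.072 and 0.086, gave ERBB2 0.070 and 0.085 (sign turned, called higher), STARD3 0.045 and 0.060 (sign turned), MIEN1 0.13 and 0.15 (called), TCAP -0.098 and -0.084 (not called) and a member median of 0.13 and 0.15. Relative to the rest of chromosome 17 (0.068), values were 2.22 for VIRMA, -0.069 for ERBB2, 0.22 for MED1, 0.076 for CDK12, -0.094 for STARD3, 0.21 for PGAP3, -0.0073 for MIEN1 and for the member median, 0.36 for GRB7, -0.24 for TCAP and -0.75 for PSMD3. The filterByExpr filter called ERBB2 (-0.045) and STARD3 (-0.070) lower. The median was 0.026 with no filter, 0.017 with filterByExpr and 0.031 with a minimum of 10 counts per library. MIEN1 passed with limma-voom (0.061) and with the replicate block (0.061), and the block changed no other call. The 2 Mb flank gave a centromeric median of -0.016. Leaving out 1 library gave 2.25 to 2.32 for VIRMA, -0.018 to 0.011 for ERBB2 (above 0 without eGFP control replicate 1), 0.024 to 0.092 for MIEN1 and the median, -0.21 to -0.13 for TCAP, 4 to 5 members higher and 2 to 3 lower. The causes were not tested. With 2 libraries a group, small shifts such as that of MIEN1 are near what this spread can show.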

Other observations

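Farther along the flanks, the following genes were chosen after their values were seen. On the telomeric side CDC6, which licenses replication origins, was lower at -1.11 (SE 0.032, edgeR adjusted p = 3.06e-26), its counts going from 25858 and 25170 to 12082 and 11902. TOP2A, a topoisomerase gene of dividing cells that is co-amplified with ERBB2 in some tumours, was lower at -0.40 (adjusted p = 3.41e-13), and THRA, a thyroid hormone receptor, at -0.85 (adjusted p = 1.57e-18). KRT23, a type I keratin, rose by 1.45 (adjusted p = 1.77e-19), from 888 and 884 counts to 2471 and 2442, and KRT24 in the same cluster was lower at -1.51 (adjusted p = 9.47e-06) on 50 to 174 counts per library, having passed the filter through the control libraries alone. On the centromeric side STAC2 was lower at -1.78 (adjusted p = 1.01e-15), its counts going from 1082 and 1119 to 372 and 279. RPL19, a ribosomal protein gene in the same flank, was at -0.010 (adjusted p = 0.590), and FBXL20 beside MED1 rose by 0.27 (adjusted p = 6.39e-09).

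COL1A1 was the only one of 6 fibroblast markers tested, at -0.62 (adjusted p = 2.88e-07), and it passed the filter through the control libraries alone. The summed level of the list was 13.5 and 13.9 CPM in the controls and 8.51 and 9.10 CPM in the VIRMA-overexpressing cells. Of the 5 luminal markers tested 3 were lower and 2 higher: KRT8 was lower at -0.51 (adjusted p = 1.70e-22) and GATA3 higher at 0.17 (adjusted p = 0.00302). Neuron markers summed to 2.62 to 3.70 CPM with none of 6 tested, and their part in the level of PPP1R1B was not tested.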
